A study of Mus musculus with 3 samples.

Results

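RNA-seq of nasal DP cells, which are double positive for Ly6G and SiglecF, was compared with RNA-seq of nasal neutrophils, which carry Ly6G without SiglecF. The members of the comparison were chosen by the labels: 2 of the 3 libraries of the series, joined by gene name over 23234 genes, of which the 10719 with a mean of 1 FPKM or more over the 3 libraries were tested. FPKM stands for fragments per kilobase of transcript, scaled to the mapped fragments of the library. All mice were wild-type C57BL/6J aged 6 to 15 weeks, and all had received lipopolysaccharide (LPS), a bacterial cell wall component, by the nose (10 µg in 10 µL PBS, both nostrils). DP cells (CD45+ Ly6G+ SiglecF+) came from noses taken 2 days after LPS. Nasal neutrophils (CD45+ Ly6G+ SiglecF-) came from noses taken after 1 day, and peripheral blood neutrophils of that same gate and day are given as a further reference. Each group was 1 library, and how many mice gave cells to it is not given in the sources used here. Replicate error and tests are therefore lacking for every difference below. The gate and the day differ together, and their parts cannot be told apart.

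Neutrophils are short-lived granulocytes that leave the bone marrow with preformed granules, and on entering inflamed tissue they switch on transcription of chemokines, cytokines and NF-kappaB feedback genes. SiglecF is a sialic acid-binding receptor best known from eosinophils and alveolar macrophages of the mouse, and it also appears on some neutrophils in inflamed airways and tumours. Leukotriene C4 synthase, respiratory chain subunits and granule proteins, which recur below, are known respectively from eosinophils and mast cells, from every cell with active mitochondria, and from maturing neutrophils of the bone marrow.

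Depth differed between the 2 nasal libraries. Steps between the low values put 1 fragment per kilobase at 0.0183 FPKM in DP and at 0.0782 FPKM in nasal neutrophils, so that a level of 1 FPKM at 1 kb amounts to about 55 fragments in DP and about 13 in nasal neutrophils. The FPKM sums were 637561 and 620230.4. The 100 most abundant genes held 37.9% of the sum in DP and 53.4% in nasal neutrophils, and 50 of these genes were shared. The code of the nasal neutrophil library in the labels is not adjacent to those of the other libraries; the labels name no batch, and a batch cannot be told apart from the group.

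Genes that encode the sorted surface proteins come before the rest. Below, 3 FPKM values in a row are those of DP, nasal neutrophils and blood neutrophils in that order, and a fold is a ratio of FPKM. Siglec5, the row taken here as the SiglecF gene because Siglece has a row of its own, stood at 168, 9.92 and 18.7 FPKM. It was highest in DP, 16.9-fold above nasal neutrophils, in the direction of the gate. In bulk RNA more cells that express a gene and more RNA per cell cannot be told apart, here and in every value below. The CD45 gene Ptprc measured 445, 137 and 719 FPKM, so that DP lay 3.26-fold above nasal neutrophils and below blood. Ly6g was not analysed here. Itgax, which encodes CD11c, stood at 55.4, 14.3 and 5.34 FPKM and was highest in DP. Itgam, which encodes CD11b, stood at 26.9, 137 and 136 FPKM and was lowest there, 5.11-fold below nasal neutrophils.

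Neutrophil transcripts were detected in both nasal libraries, at a lower summed level in DP. The identity and maturation genes summed to 17148, 63579 and 92421 FPKM, and 24 of 29 tested had a log2 ratio below 0. Csf3r, the receptor for the neutrophil growth factor G-CSF, stood at 581, 607 and 1180.4 FPKM, near equal in the nose. Cxcr2, the receptor through which neutrophils follow CXC chemokines, stood at 254, 350.0 and 1444 FPKM. S100a9, which encodes a calprotectin subunit, stood at 3233, 12277 and 52238 FPKM, lowest in DP but still among its abundant transcripts. Several defining eosinophil genes were at or near 0 in both nasal libraries. Epx (eosinophil peroxidase) and Prg3 were listed at 0 in all 3 libraries, and Prg2 (major basic protein) stood at 0.19, 0 and 0.16 FPKM. Il5ra, the interleukin-5 receptor chain, stood at 0.60, 0.53 and 1.07 FPKM. Of 26 eosinophil markers with a row, 9 passed the filter on low values, among them Ear2 and Ccr3 with log2 ratios of -3.13 and 0.97. The median of the 9 was -0.72, and 1.23 for those at a mean of 5 FPKM or more. All 26 markers summed to 703, 1506 and 1019 FPKM in the order above. Most of these sums came from Hdc (histidine decarboxylase, 517, 1456 and 982 FPKM), a gene that basophils and neutrophils also use, and in DP from Siglec5. The mast cell genes Mcpt4, Tpsab1 and Fcer1a were listed at 0 in all 3 libraries, and Cpa3 at 0 in DP.

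Across all tested genes the distribution was shifted towards DP. Of 10719 genes, 903 were higher by 4-fold or more in DP (8.42%) and 388 lower by 4-fold or more (3.62%) on the log2(FPKM + 1) scale. At 2-fold the counts were 3600 higher (33.6%) and 1207 lower (11.3%), and 55.2% of genes lay within 2-fold. The median log2 ratio was 0.57, a shift that concerns every list below. With ratios centred on it, 360 genes (3.36%) were higher by 4-fold or more and 773 (7.21%) lower by 4-fold or more, so that the balance of directions turned with the scaling. Centring turned the sign of any list whose median lay between 0 and 0.57, and such lists are named where they appear. A gene called near equal is so as deposited and lies below that median. At the edge of the filter, Tep1 was just inside with a mean of 1.0001 FPKM and Olfr1321 just outside with 1.0000.

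**Figure D1:**
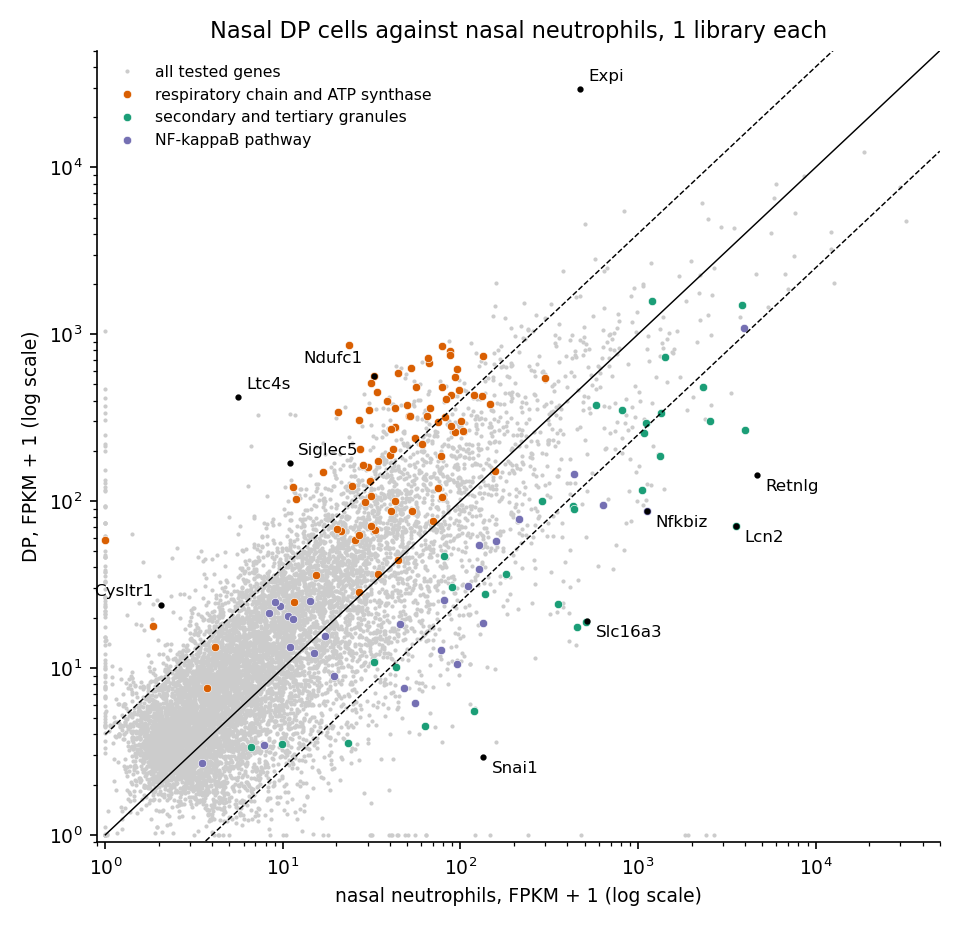
Level of each tested gene in nasal neutrophils (x axis) and DP (y axis), as FPKM + 1 on log axes, 1 library each. The solid line marks equal levels and the dashed lines 4-fold; respiratory chain and ATP synthase genes lie mostly on the DP side, secondary and tertiary granule genes on the neutrophil side, and points on an axis are genes listed at or near 0 in that library.

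Transcript length moved with the ratio. Genes with transcripts of 400 to 600 nt had a median log2 ratio of 0.97 (466 genes), those of 1500 to 2000 nt 0.59 (1537 genes) and those over 5000 nt 0.22 (640 genes). Of the genes higher by 4-fold or more in DP, 48.6% had transcripts under 1000 nt, against 23.6% of those lower by 4-fold or more and 23.6% of all tested genes. MicroRNA and small nucleolar RNA genes, of which 175 were tested, were 77 of the 903 and 19 of the 388. Of the 903 and the 388 genes, 80 and 30 were listed at 0 in a nasal library. Olfactory receptor genes, of which 151 were tested, made up 37 of the higher and 0 of the lower genes. The part of transcript length in the results on short genes was not tested beyond the centring within length ranges given beside them.

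**Figure D2:**
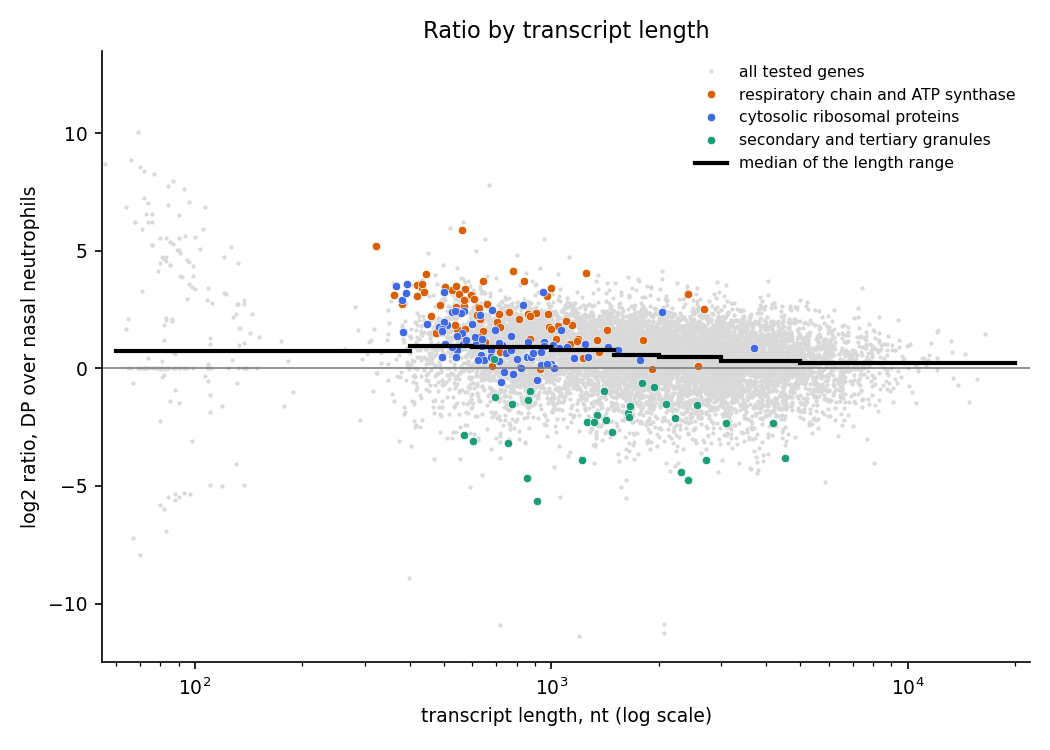
Log2 ratio of DP over nasal neutrophils (y axis) against transcript length in nt (x axis, log scale) for tested genes, with list members listed at 0 in a nasal library left out of the coloured points. Black bars are the medians of 8 length ranges and fall from 400 nt upwards; most respiratory chain genes lie above the bar of their own length and most granule genes below it.

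The gene with the largest ratio among those above 0 in both nasal libraries and at a mean of 5 FPKM or more was Ltc4s, which encodes leukotriene C4 synthase, the enzyme that joins leukotriene A4 to glutathione. It stood at 418, 4.61 and 0.80 FPKM, 90.7-fold higher in DP, and the nasal neutrophil value rests on about 33 fragments. Cysltr1, the receptor for cysteinyl leukotrienes, stood at 22.9, 1.06 and 0.67 FPKM, about 42 fragments in nasal neutrophils, and was 21.7-fold higher in DP. Both genes were low in both neutrophil libraries and high in DP alone. Upstream in the pathway, Alox5 (5-lipoxygenase) was near equal in the nose, at 80.4, 78.9 and 198 FPKM. Its activating protein gene Alox5ap stood at 1015, 1495 and 3669 FPKM, and Lta4h, which makes leukotriene B4 from the same leukotriene A4, at 43.7, 36.3 and 38.1 FPKM. Pla2g4a, the phospholipase that releases arachidonic acid, stood at 33.8, 5.92 and 7.14 FPKM and was 5.71-fold higher in DP. Cyp4f18, which inactivates leukotriene B4, stood at 2406, 377 and 1094 FPKM, 6.38-fold higher in DP than in nasal neutrophils.

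Other enzymes of the same chemistry went the other way. Mgst2, a microsomal glutathione transferase that can also make leukotriene C4, stood at 1.05, 12.5 and 22.7 FPKM, 11.9-fold lower in DP. Ggt1, a gamma-glutamyl transferase that converts leukotriene C4 to D4, stood at 2.74, 29.1 and 10.3 FPKM, 10.7-fold lower. The prostaglandin synthases parted: Ptgs1 (cyclooxygenase-1) stood at 77.5, 7.75 and 5.32 FPKM and was 10.0-fold higher in DP, whereas the inducible Ptgs2 (cyclooxygenase-2) stood at 264, 738 and 2.01 FPKM and was 2.80-fold lower. Of 29 tested genes of lipid mediator synthesis and breakdown, 6 were higher by 4-fold or more and 2 lower by 4-fold or more. The shares over all tested genes were 8.42% and 3.62%. When centred, 4 were higher and 3 lower by 4-fold or more, beside 3.36% and 7.21% of all tested genes. The list median was 0.21, and -0.37 when centred, so the list as a whole had no direction that held under both scalings.

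**Figure D3:**
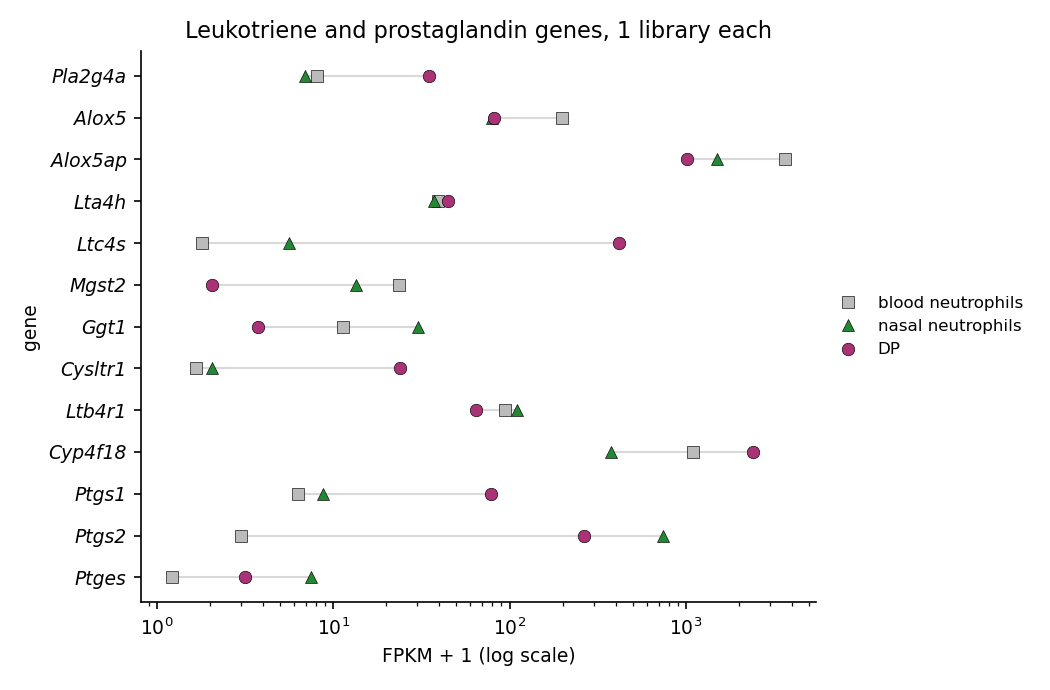
Levels of 13 leukotriene and prostaglandin genes in DP, nasal neutrophils and blood neutrophils, as FPKM + 1 on a log axis, 1 library each. Ltc4s, Cysltr1, Ptgs1, Cyp4f18 and Pla2g4a are highest in DP, while Alox5 and Lta4h nearly coincide in the nasal libraries.

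Individual lectin receptors differed in both directions. Clec4n (Dectin-2) stood at 1670.1, 444 and 70.2 FPKM, and Clec5a, a receptor that pairs with DAP12 and DAP10 adaptors, at 534, 96.5 and 89.7 FPKM. Both were highest in DP, 3.76-fold and 5.53-fold above nasal neutrophils. Clec4d stood at 124, 1179 and 978 FPKM and was 9.49-fold lower in DP, with Clec4e (Mincle) at 368, 926 and 550.3 FPKM. Siglece, an inhibitory receptor of myeloid cells, was near equal at 326, 345 and 362 FPKM. Of 23 tested Siglecs and lectins, 14 lay within 2-fold, 2 were higher by 4-fold or more (Siglec5 and Clec5a, of which Siglec5 alone when centred) and 2 lower by 4-fold or more (Clec4d and Klra2). The higher share is near the 8.42% of all tested genes, of which 3.62% were lower by 4-fold or more and 55.2% lay within 2-fold. Klra2, a C-type lectin of the Ly49 family, stood at 7.16, 39 and 122 FPKM.

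Fc, cytokine and paired receptors passed 4-fold more often on the lower side than on the higher. Tnfrsf1b (TNF receptor 2) stood at 23.6, 253 and 28.8 FPKM, 10.7-fold lower in DP. The shared beta chains of the GM-CSF receptor family followed, with Csf2rb at 30.9, 146 and 62 FPKM and Csf2rb2 at 4.80, 43.5 and 12.1 FPKM. Fcgr1, the high-affinity IgG receptor, stood at 3.51, 18.3 and 0.34 FPKM, 5.21-fold lower, while Fcgr3 was at 1359, 985 and 2637 FPKM and the signalling chain Fcer1g at 4408, 2936 and 4344 FPKM, neither of them 2-fold apart. Tgfbr1, the type I receptor for TGF-beta, was the member higher by 4-fold or more in DP, at 245, 31.1 and 20.7 FPKM. In all, 1 of 38 tested genes was higher by 4-fold or more and 6 were lower by 4-fold or more.

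Receptors for chemoattractants and metabolites were mostly lower in DP, with 7 of 31 lower by 4-fold or more (12 when centred) and 1 (Cysltr1) higher by 4-fold or more. C5ar1, the receptor for complement C5a, stood at 192, 811 and 559 FPKM, 4.22-fold lower. Niacr1, the receptor for niacin and hydroxybutyrate, stood at 417, 2036 and 105 FPKM, and Ptafr, the receptor for platelet-activating factor, at 34.3, 166 and 70.9 FPKM. Nasal neutrophils held the highest level of all 3 genes. Ffar2, a receptor for short-chain fatty acids, stood at 41.8, 9.89 and 0.95 FPKM, 4.22-fold higher in DP as an FPKM ratio and just short of 4-fold once 1 is added to each value. Cxcr4, which draws ageing neutrophils back to the bone marrow, differed by less than 2-fold at 34, 50.7 and 17.3 FPKM. Among 25 pattern recognition receptors and adaptors, 11 were lower by 2-fold or more and 0 higher by 2-fold or more. Cd14, a co-receptor for LPS, stood at 4118, 12196 and 204 FPKM, and Tlr4, its signalling partner, at 11.3, 35.9 and 47.1 FPKM. Tlr13, an endosomal receptor for bacterial ribosomal RNA, was near equal at 109, 109.7 and 266 FPKM.

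Granule genes formed the lowest list. Of 31 tested genes of secondary and tertiary granules, 18 were lower by 4-fold or more in DP and 0 higher by 4-fold or more, with a median of -2.21 against 0.57 for all tested genes. Camp, which encodes the antimicrobial peptide cathelicidin, stood at 116, 1055 and 398 FPKM. Cd177, a neutrophil surface protein stored in secondary granules, stood at 23, 354 and 109.7 FPKM, and Ltf, which encodes lactoferrin, at 186, 1324 and 56.6 FPKM. Camp, Cd177 and Ltf were highest in nasal neutrophils, above blood as well. The whole list summed to 7344, 29446 and 39709 FPKM, highest in blood. Slpi, a protease inhibitor, stood at 301, 2537 and 7863 FPKM, and Mmp25, a membrane-bound metalloproteinase, at 3.50, 61.8 and 17.8 FPKM. The gelatinase gene Mmp9 (374, 581 and 567 FPKM) and the oxidase subunit gene Cyba (1577, 1192 and 1909 FPKM) were the members closest to equality. Ly6c2, a surface protein gene of the Ly6 family, stood at 10.4, 262 and 168 FPKM, 25.1-fold lower in DP.

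Genes of neutrophil maturation did not all follow the granule genes. Cebpe, a factor of granulocyte maturation that drives granule genes in the bone marrow, stood at 39.1, 12.9 and 5.79 FPKM and was 3.03-fold higher in DP. Cd101, a surface marker of mature neutrophils, was near equal in the nose at 32.8, 30.3 and 179.5 FPKM, as was Cebpd at 72.9, 62.8 and 53.7 FPKM. Sfpi1, which encodes the myeloid factor PU.1, stood at 483, 612 and 461 FPKM. Of 29 tested identity and maturation genes, 9 were lower by 4-fold or more (14 when centred) and 0 higher by 4-fold or more, several of them granule genes of the list above. Among other myeloid transcription factors Irf5 stood at 20.1, 84.9 and 22.2 FPKM, Nfe2 at 16, 65.4 and 184 FPKM and Fli1 at 53.4, 29.4 and 31.5 FPKM. Gfi1b, a repressor known from erythroid and megakaryocyte cells and chosen after its values were seen, stood at 45.4, 2.34 and 0.15 FPKM, 19.4-fold higher in DP.

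Of 12 tested primary granule genes, 2 were lower by 4-fold or more in DP, the protease inhibitor gene Serpinb1a (5.21, 43.4 and 18.8 FPKM) and the lysozyme gene Lyz2 (479.8, 2328 and 6120.4 FPKM). The protease genes of promyelocytes were low in both nasal libraries, with Mpo (myeloperoxidase) at 3.90, 7.37 and 0 FPKM and Elane (neutrophil elastase) at 8.59, 8.91 and 0 FPKM. Srgn, which encodes the granule proteoglycan serglycin, stood at 1870.0, 7030.2 and 3892 FPKM, and Cd63, a granule membrane protein gene, was higher in DP at 919, 414 and 141 FPKM. The subunits of the NADPH oxidase, which makes superoxide, were close: of 11 tested genes, 9 lay within 2-fold. Ncf1 stood at 104, 318 and 100.4 FPKM and Cybb at 29.5, 89.1 and 23.3 FPKM, the pair lower by 2-fold or more in DP. Ncf4, a cytosolic subunit gene, was near equal in the nose at 366, 344 and 375 FPKM.

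Transcripts of the NF-kappaB circuit were lower in DP at its inducible members and not at the subunits of its kinase complex. Nfkbiz, an atypical inhibitor of NF-kappaB, stood at 86.7, 1121 and 16.7 FPKM. Nfkb2 stood at 9.62, 94.4 and 3.84 FPKM and Relb, its partner subunit, at 5.18, 54.7 and 5.14 FPKM. Tnfaip3, which encodes the deubiquitinating inhibitor A20, stood at 93.3, 633 and 2.32 FPKM, and Zc3h12a, an RNase that degrades cytokine transcripts, at 17.7, 133 and 4.54 FPKM. Nasal neutrophils were highest for each, and DP lay 10.6-fold below them for Relb, near the blood level, and 6.78-fold below them for Tnfaip3. Nfkb1, by contrast, stood at 14.4, 16.2 and 11.1 FPKM. The kinase complex genes Chuk, Ikbkb and Ikbkg stood at 20.3, 7.36 and 4.42 FPKM, 24.4, 13.2 and 14.7 FPKM and 23.9, 8.04 and 12.8 FPKM. Those 3 genes were higher in DP, by 2.76-fold, 1.85-fold and 2.97-fold. The log2 ratio of Ikbkb was 0.84, beside a median of 0.57 for all tested genes. Over 28 tested genes the median was -1.38, with 7 lower by 4-fold or more (14 when centred) and 0 higher by 4-fold or more.

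Immediate early genes, which respond within minutes of a stimulus, divided by member. Fosl1 stood at 0.27, 15.6 and 0 FPKM, 57.9-fold lower in DP, and Ier3 at 116, 1394 and 31 FPKM, 12-fold lower. Fosb stood at 5.08, 112 and 0.28 FPKM. Some abundant members differed by less than 1.5-fold in the nose, with Fos at 1776, 2214 and 209.7 FPKM, Junb at 4022, 5641 and 459 FPKM and the nuclear receptor gene Nr4a1 at 969, 1138 and 12.4 FPKM. Dusp1, a phosphatase that switches off MAP kinases and responds to the same signals, stood at 8873 and 8628 FPKM in DP and nasal neutrophils. Egr2 was higher in DP, at 181, 66.2 and 0.77 FPKM, and Ier2 at 1955, 1070.0 and 129.9 FPKM. Both nasal libraries were above blood for each of these immediate early genes, whether or not they differed from each other. Of 35 tested genes, 12 were lower by 4-fold or more and 0 higher by 4-fold or more. Of 17 MAP kinase phosphatases and feedback regulators, 4 were lower by 4-fold or more (8 when centred), among them Gadd45a (38.6, 262 and 27.3 FPKM) and Dusp2 (46.6, 196 and 0.39 FPKM), while Dusp6, a phosphatase of ERK, was at 89.1, 44.1 and 104 FPKM.

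**Figure D4:**
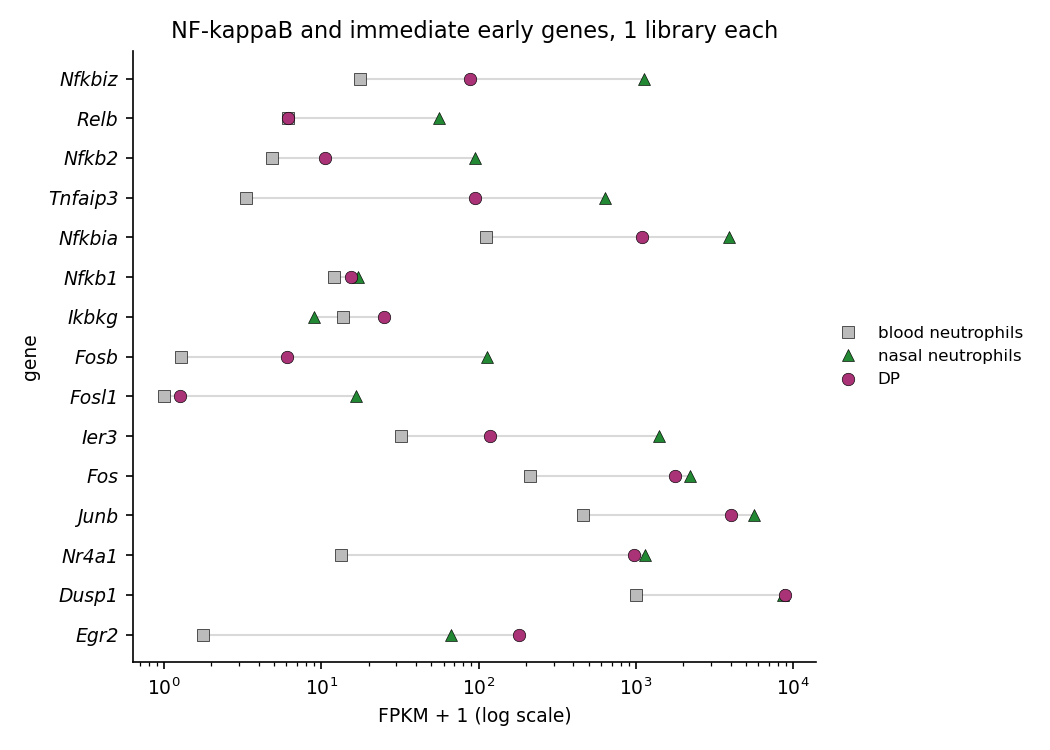
Levels of 15 NF-kappaB and immediate early genes in DP, nasal neutrophils and blood neutrophils, as FPKM + 1 on a log axis, 1 library each. Nfkbiz, Relb, Nfkb2, Tnfaip3, Fosb, Fosl1 and Ier3 are far higher in nasal neutrophils than in DP, whereas Fos, Nr4a1 and Dusp1 nearly coincide.

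Secreted mediators were lower in DP as groups. Of 13 tested CXC chemokine genes, 5 were lower by 4-fold or more and 0 higher by 4-fold or more, and of 16 CC chemokine genes 2 were lower by 4-fold or more and 0 higher by 4-fold or more. When centred, 6 CXC and 9 CC genes were lower by 4-fold or more. Cxcl2, a neutrophil attractant, stood at 2025, 12756 and 3.60 FPKM, 6.30-fold lower in DP than in nasal neutrophils yet 562-fold above blood. Ccl3 stood at 2289.7, 4615 and 1.89 FPKM and Ccl4 at 2308, 6729 and 8.36 FPKM, both attractants of monocytes and lymphocytes. Ccl17, which attracts T helper cells, was the reverse, at 21.4, 6.61 and 0 FPKM. Ccl6 was highest in blood, at 266, 878 and 6275 FPKM. In the interleukin-1 family Il1a stood at 377, 2575 and 0.15 FPKM, Il1b at 2931, 7513 and 2322 FPKM and the antagonist gene Il1rn at 900.0, 2146 and 370.5 FPKM. Il1r2, the decoy receptor, was at 2740.5, 1996 and 566 FPKM, 1.37-fold higher in DP. Other cytokines lower in DP were Csf3 (G-CSF), at 26.9, 188 and 0 FPKM, Il12a, at 3.82, 30.9 and 0.91 FPKM, and Il23a, at 90.0, 261 and 0.059 FPKM. The pair Ltb (lymphotoxin beta), at 349, 149.9 and 179 FPKM, and Tnfsf9 (4-1BB ligand), at 73.7, 33.7 and 3.38 FPKM, were higher in DP. Of 19 tested interleukin-1 family genes, 1 was higher by 4-fold or more (Il33, log2 ratio 2.84) and 3 were lower by 4-fold or more. Of 30 other cytokine and growth factor genes, 1 was higher by 4-fold or more (Mdk, 2.27, but 0 when centred) and 7 were lower by 4-fold or more.

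Interferon response genes were lower in DP at some members and close at others: of 47 tested, 7 were lower by 4-fold or more (15 when centred), 22 lay within 2-fold and 4 were higher by 2-fold or more. Irf7, a master factor of the response, stood at 61.2, 329.8 and 138 FPKM, and Ifitm6 at 101, 1101 and 852 FPKM. Gbp7, a guanylate-binding protein gene, was higher in DP, at 48.5, 14.4 and 28.9 FPKM. Ifitm2, an antiviral membrane protein gene, was abundant in all 3 libraries at 4306, 3471 and 5577 FPKM. Class II antigen presentation genes stood lower in DP without reaching 4-fold, with H2-Aa at 67.5, 188 and 57.4 FPKM, H2-Eb1 at 18.7, 72.4 and 15.6 FPKM and Cd74, the invariant chain, at 819.9, 1115 and 227 FPKM. Cd86, a co-stimulatory ligand, stood at 16.3, 7.82 and 31.5 FPKM. Of 22 genes of presentation and co-stimulation, 1 (Cd274, PD-L1) was lower by 4-fold or more, a share near the 3.62% of all tested genes. When centred, 4 were lower by 4-fold or more, beside 7.21% of all tested genes. On the log2(FPKM + 1) scale 10 of the 22 were lower by 2-fold or more and 0 higher by 2-fold or more. Over all tested genes 11.3% were lower and 33.6% higher by 2-fold or more. Arginase genes were lower as well, with Arg2 at 92.6, 431 and 508 FPKM and Arg1 at 2.57, 22.2 and 0 FPKM. Havcr2 (TIM-3) stood at 37, 17 and 0.63 FPKM, 2.18-fold higher in DP.

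Nuclear-encoded respiratory chain genes formed the highest lists. All 37 tested complex I subunit genes were higher by 2-fold or more in DP and 26 higher by 4-fold or more, with a median of 2.35. Ndufa12 stood at 583, 43.2 and 14.9 FPKM, Ndufb8 at 788, 86.4 and 124 FPKM and Ndufc1 at 565, 31.6 and 28.6 FPKM. DP was highest for each, and nasal neutrophils lay closer to blood. The core subunit gene Ndufs1 was among the least different of the list, at 23.8, 10.5 and 16.5 FPKM. Ndufs5 was at 0.00083 FPKM in nasal neutrophils, less than 1 fragment, and no fold is given. The 12 complex IV genes had a median of 2.60, with 8 higher by 4-fold or more, such as Cox6c at 378, 48.7 and 132 FPKM and Cox5b at 552, 91.9 and 150.3 FPKM, and Cox4i1 the least different at 548, 298 and 389 FPKM.

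Complexes II and III and the ATP synthase followed with more spread. In complexes II and III the median was 1.77 and 4 of 13 genes were higher by 4-fold or more; Uqcr10 stood at 625, 51.8 and 211 FPKM, while the succinate dehydrogenase gene Sdhc was near equal at 35.4, 33.3 and 22.2 FPKM. In the ATP synthase the median was 1.67 with 8 of 17 higher by 4-fold or more. Its catalytic subunits Atp5b and Atp5a1 did not differ by more than 1.5-fold, at 151, 155 and 114 FPKM and 74.6, 69.4 and 36.3 FPKM, whereas the small subunits Atp5e and Usmg5 stood at 480.1, 55.4 and 249.6 FPKM and 755, 85.9 and 268 FPKM. Mitochondrial ribosomal protein genes were all above 0 on the log2 scale, with 29 of 76 higher by 4-fold or more and a median of 1.74, among them Mrpl42 at 439, 27.6 and 10.1 FPKM. These genes are short, and centring within length ranges gave medians of 1.48 for complex I, 1.67 for complex IV, 0.87 for complexes II and III, 0.71 for the ATP synthase and 0.98 for mitochondrial ribosomal proteins, all above 0. Centred on the median gene, 17 complex I, 6 complex IV, 3 complex II and III, 4 ATP synthase and 9 mitochondrial ribosomal protein genes were higher by 4-fold or more.

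Other machinery with short genes had medians nearer to 0 within length ranges. The cytosolic ribosomal protein genes had medians of 0.99 (large subunit, 47 genes) and 0.95 (small subunit, 33 genes), which became 0.08 and 0.15 within length ranges. Their reads may be divided with processed pseudogenes, and Rps27 was listed at 0 in DP and blood. Proteasome genes had a median of 1.20, 0.49 within length ranges, with 3 of 37 higher by 4-fold or more, a share near the 8.42% of all tested genes, and 0 when centred. Psmb6, one of the 3, stood at 309, 59.7 and 45.9 FPKM. The immunoproteasome gene Psmb8 stood at 433, 191 and 164 FPKM and Psmb9 at 64.7, 76.3 and 121 FPKM. For spliceosome and Lsm genes the median was 0.96, and 0.29 within length ranges.

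Glycolysis was among the metabolic lists on the other side. Of 22 tested genes, 4 were lower by 4-fold or more and 0 higher by 2-fold or more in DP, with a median of -0.68. Slc16a3, which exports lactate, stood at 18.2, 515 and 157 FPKM, 28.3-fold lower. Pfkfb3, which makes the activator of phosphofructokinase, stood at 22.4, 172 and 14 FPKM, and the hexokinase genes Hk3 and Hk1 at 6.79, 61.9 and 65.3 FPKM and 4.10, 26 and 9.10 FPKM. The enzymes of the lower pathway were close, with Eno1 at 802, 730.3 and 1142 FPKM, Aldoa at 810.5, 698 and 795 FPKM and Pgk1 at 110.2, 134 and 132 FPKM. Hif1a, the oxygen-sensitive factor behind many glycolytic genes, stood at 27, 90.8 and 32.7 FPKM. In the citrate cycle Mdh2 stood at 1534, 228 and 399 FPKM and Sucla2 at 109, 15.4 and 13.6 FPKM, 6.73-fold and 7.08-fold higher in DP. Irg1, which diverts the cycle to itaconate in activated myeloid cells, stood at 74.6, 916 and 40.0 FPKM, 12.3-fold lower, and G6pdx, the entry to the pentose phosphate pathway, at 20.6, 122 and 172 FPKM. That mixed list of 25 genes had a median of 0.53, which was -0.04 when centred.

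**Figure D5:**
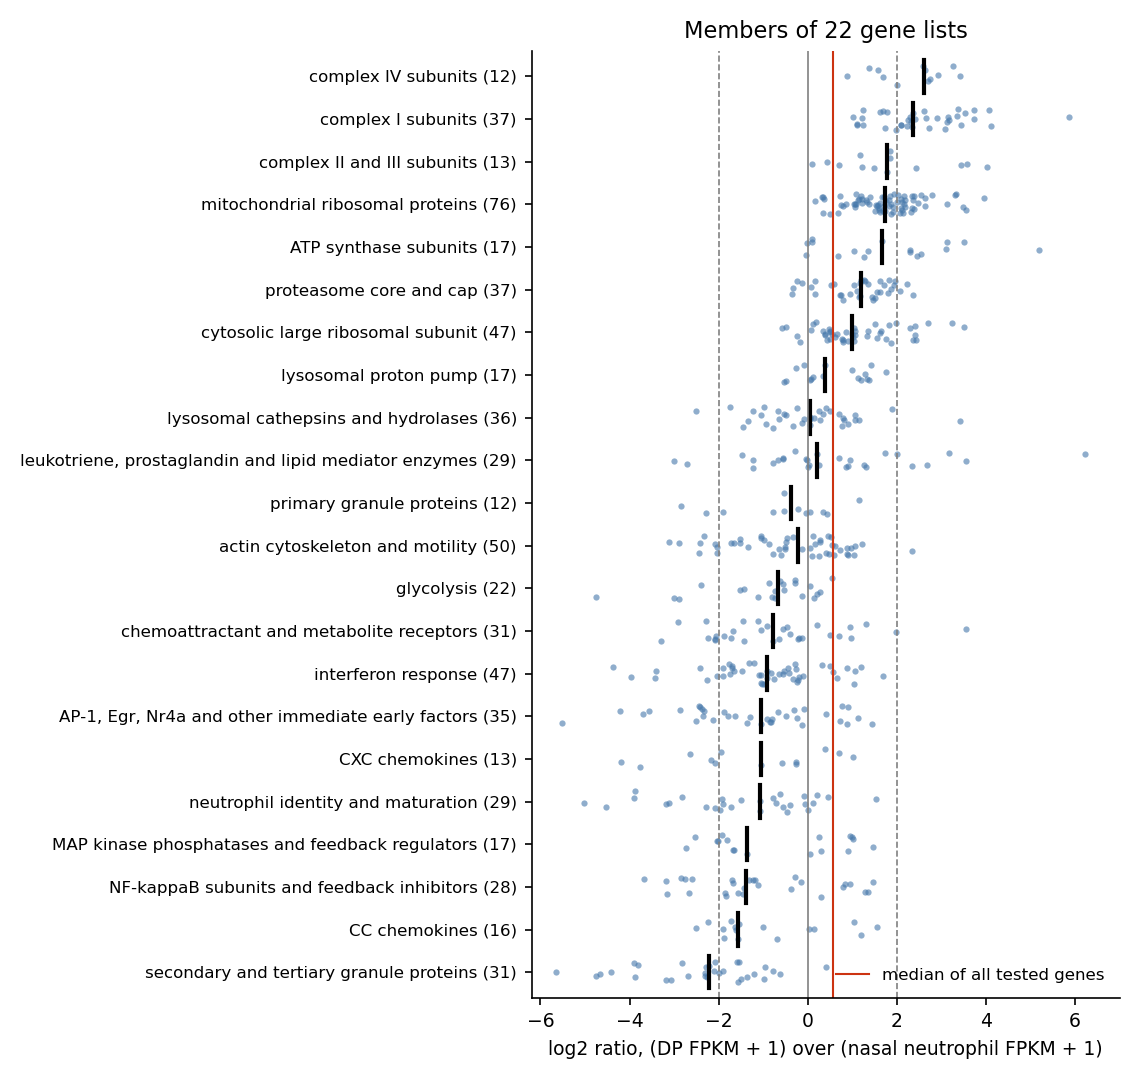
Log2 ratio of DP over nasal neutrophils for each tested member of 22 gene lists (points; the number tested is in brackets), with the list median as a black bar; members listed at 0 in a nasal library are not drawn but count in the median. The red line is the median of all tested genes and the dashed lines mark 4-fold; the respiratory chain lists lie to the right of the red line and the granule, chemokine and NF-kappaB lists to its left.

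Lipid and iron handling genes differed in both directions. Of 38 tested lipid genes, 2 were higher by 4-fold or more and 4 lower by 4-fold or more. Their median was -0.54, -1.12 when centred and 0.08 for those at a mean of 5 FPKM or more. Of 38 tested antioxidant, haem and iron genes, 1 was higher by 4-fold or more and 2 lower by 4-fold or more. Over all tested genes the shares were 8.42% and 3.62%. Dgat2, which makes triglyceride, stood at 22.3, 375 and 46 FPKM, 16.8-fold lower in DP, and Olr1, a receptor for oxidised LDL, at 3.02, 57.8 and 0.074 FPKM. Abcg1, which exports cholesterol, stood at 319.9, 55.9 and 38.6 FPKM and Soat1, which esterifies it, at 143, 33.7 and 34.7 FPKM, both highest in DP by 5.73-fold and 4.24-fold over nasal neutrophils. Fth1, the ferritin heavy chain gene and the most abundant row of the nasal neutrophil library, stood at 4778, 32459 and 3899 FPKM, 6.79-fold lower in DP. Hmox1, which opens the haem ring, stood at 12.7, 447 and 40.8 FPKM, and Blvra, which reduces its product biliverdin, at 65.3, 10.1 and 1.83 FPKM, so that these steps lay on opposite sides. Sod2, the mitochondrial superoxide dismutase, stood at 79.8, 277 and 5.87 FPKM, while cytosolic Sod1 was near equal at 92.4, 94.3 and 20.3 FPKM.

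Lysosomal genes did not move as a set. Ctsd, which encodes cathepsin D, was 5.74-fold lower, at 212, 1219 and 1155 FPKM. Of 36 tested cathepsins and hydrolases, 25 lay within 2-fold, and the median of 0.05 became -0.52 when centred. The proton pump genes had a median of 0.38, or -0.19 centred. Sqstm1, the autophagy receptor p62, stood at 93.8, 1066 and 78.1 FPKM, 11.4-fold lower in DP, while Map1lc3b stood at 993, 341 and 1247 FPKM, 2.91-fold higher. The inducible heat shock genes Hspa1a and Hspa1b, near-identical copies between which reads may be divided, stood at 21.6, 209 and 0.37 FPKM and 9.97, 99.4 and 0.16 FPKM, and the constitutive Hspa8 at 932, 713 and 373 FPKM. Medians of autophagy (0.55), unfolded protein response (0.52) and heat shock (0.37) genes were all below 0 when centred.

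Adhesion and cytoskeletal genes gave a few large differences in both directions, more of them lower in DP. Jam3, a junctional adhesion molecule gene, stood at 30.5, 4.26 and 2.65 FPKM and the tetraspanin gene Cd81 at 645, 126 and 23.6 FPKM, 7.16-fold and 5.10-fold higher in DP. Cd44, a hyaluronan receptor, stood at 72.7, 372 and 356 FPKM, 5.11-fold lower in DP. Selplg, the ligand of P-selectin, was equal in the nose at 399.7, 399 and 1017 FPKM. Marcksl1, a regulator of membrane-linked actin, stood at 445, 3323 and 51.4 FPKM, 7.47-fold lower in DP. Gsn, which encodes the actin-severing protein gelsolin, stood at 853, 167 and 0 FPKM, 5.09-fold higher. Of 50 cytoskeletal genes, 30 lay within 2-fold, 2 were higher by 4-fold or more and 8 lower by 4-fold or more. Actr3, listed at 0 in nasal neutrophils, is among those counted as higher by 4-fold or more. Of 30 tested adhesion genes, 2 were higher by 4-fold or more and 6 lower by 4-fold or more. Over all tested genes 8.42% were higher and 3.62% lower by 4-fold or more, and 55.2% lay within 2-fold. The signalling genes Gngt2 (2023, 157 and 174 FPKM) and Rgs10 (209.9, 14.3 and 3.68 FPKM), chosen after their values were seen, were 12.9-fold and 14.7-fold higher in DP; they encode a G protein gamma subunit and a regulator of G protein signalling.

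Several survival genes were close in the nose and above blood. Bcl2l1, which encodes Bcl-xL, stood at 212, 212 and 16.2 FPKM, Bcl2a1a, a member of a set of close copies, at 494, 550.5 and 18.1 FPKM, and Mcl1, a short-lived survival factor of neutrophils, at 149.5, 158 and 126 FPKM. Pim1, a survival kinase gene, stood at 113, 892 and 7.34 FPKM and the death-promoting Bcl2l11 (Bim) at 8.62, 57.6 and 6.94 FPKM, 7.86-fold and 6.69-fold lower in DP. Bax stood at 214, 77.8 and 16.3 FPKM, Pmaip1 (Noxa) at 331, 88.4 and 46.5 FPKM and Cycs, cytochrome c, at 153, 28.5 and 9.09 FPKM, and all 3 were highest in DP. Of 34 tested survival and death genes, 7 were higher by 2-fold or more and 7 lower by 2-fold or more, beside 33.6% and 11.3% of all tested genes. The list median was -0.14, and -0.72 when centred. Proliferation transcripts were low in both libraries, with Mki67 at 1.26, 0.82 and 0.50 FPKM and Top2a at 0.55, 0.91 and 0.031 FPKM.

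Genes known from SiglecF-high neutrophils of tumours, listed here from general knowledge, were divided. Of 26 tested, 3 were higher by 4-fold or more in DP (among them Ltc4s and Siglec5, which the gate selects) and 4 lower by 4-fold or more (Hmox1, Cd274, Olr1 and Tnf), the latter count being 9 when centred. Spp1 (osteopontin) stood at 197, 114 and 7.75 FPKM and Xbp1, a factor of the unfolded protein response, at 561, 388 and 180.0 FPKM. Vegfa stood at 1.82, 2.35 and 0.075 FPKM.

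RNA of nasal tissue was detected in both sorted nasal libraries, at a higher summed level in DP. Olfactory neuron markers summed to 4115, 1764 and 7.45 FPKM over 37 genes, with 3 of 34 tested higher by 4-fold or more in DP and 0 lower by 4-fold or more. The first of these shares is near the 8.42% of all tested genes. Olfactory receptor genes, a separate set, had 37 of 151 tested higher by 4-fold or more, above that share. They summed to 1231, 393 and 25.5 FPKM over 1118 genes. Stoml3, a protein of olfactory cilia, stood at 1104, 497 and 0.10 FPKM, and Adcy3, the adenylate cyclase of odour transduction, at 7.39, 24.6 and 0.16 FPKM, so that members of the same cell type lay on both sides. Epithelial and gland markers summed to 2945, 1255 and 14.8 FPKM, with Cyp2f2, an enzyme of airway epithelium, at 645, 173 and 0.021 FPKM and Epcam at 29.7, 25.7 and 0 FPKM. Of these, 2 of 34 tested were higher by 4-fold or more. When centred no member of the olfactory neuron marker list or the epithelial list was (0 and 0), and their medians of 0.43 and 0.51 turned below 0. Secretory protein genes of the nose had 10 of 33 higher by 4-fold or more and 4 lower. The lower genes were Ltf, Lyz1 (88.9, 433 and 1010.1 FPKM) and the close copies Bpifb9a (0, 1843 and 0.60 FPKM) and Bpifb9b (0, 2401 and 0.77 FPKM), between which reads may be divided and which are listed at 0 in DP. The higher genes included Lcn11 at 5449, 834 and 0.23 FPKM and Scgb1c1 at 1294, 151 and 0.15 FPKM, while Obp1a stood at 1073, 1329 and 0.42 FPKM. Expi, a secreted protease inhibitor and the most abundant row of the DP library, stood at 29517, 472 and 27.5 FPKM. The part of nasal tissue RNA in these and in the other results was not tested.

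Markers of other leukocytes were mostly lower in DP or low in both nasal libraries. The 26 macrophage markers summed to 780.3 FPKM in DP and 1093 in nasal neutrophils, 15 of them tested, of which 3 were lower by 4-fold or more (6 when centred) and 0 higher by 4-fold or more. The complement gene C1qa stood at 10.5, 30.8 and 0 FPKM and the F4/80 gene Emr1 at 47.2, 59.9 and 78.8 FPKM. B and plasma cell markers summed to 629.6 FPKM in DP and 499.9 in nasal neutrophils. Most of both sums came from Xbp1 (log2 ratio 0.53), which is also listed with the unfolded protein response. Of 19 tested B and plasma cell markers, 16 had a log2 ratio below 0 and 3 above. By 4-fold or more 5 were lower (9 when centred), with Ms4a1 (CD20) at 0.53, 4.45 and 12.5 FPKM. Monocyte and dendritic cell markers had 7 of 16 lower by 4-fold or more, their summed level being 1082 FPKM in DP and 2024 in nasal neutrophils. T and NK cell markers summed to 82.3 and 178 FPKM, and none of 8 tested passed 4-fold (0 higher and 0 lower). Their median of 0.32 became -0.25 when centred, with Cd3g at 1.72, 0.17 and 3.64 FPKM and Nkg7 at 9.46, 2.91 and 2.77 FPKM. The part of these cells in the lower levels of chemokine, antigen presentation and interferon genes in DP was not tested.

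Promoters were searched for 6 motifs. RefSeq promoters of build GRCm38.p6, 250 bases before to 50 after a start site, were matched by symbol to 8387 of the tested genes (78.2%), some with several start sites. The kappaB motif GGANTTTCC, read on both strands as were the others, was found in 19 of 371 promoters of genes lower by 4-fold or more in DP (5.12%), in 3 of 798 of genes higher by 4-fold or more (0.376%) and in 1.39% of promoters of all tested genes. AP-1 motifs (TGANTCA) were in 10.8%, 5.14% and 5.8% in the same order, and ETS motifs (CCGGAAGT) in 1.89%, 9.65% and 8.36%. For NRF1 (GCGCATGCG) the shares were 1.89%, 4.64% and 3.54%, for CRE (TGACGTCA) 1.62%, 3.26% and 3.09%, and for Sp1 (GGGCGGGG) 38.3%, 25.1% and 31.0%. Among all promoters of the table, tested or not, 1.25% held kappaB and 3.89% ETS. With calls on centred ratios kappaB was in 3.41% of promoters of lower genes and 0.725% of higher genes. By list, kappaB was in 4 of 9 CXC chemokine promoters and 0 of 15 CC chemokine promoters. ETS was in 2.86% of 35 complex I promoters and 16.4% of 73 promoters of mitochondrial ribosomal protein genes. A match is a description of letters and not a bound site.

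The 250 bases before the start site are shown for the gene with the largest ratio, for 3 genes lower in DP that hold kappaB and for 2 respiratory genes higher in DP that hold ETS or NRF1, these 5 being chosen after their motifs were seen. Capitals mark matches to the 6 motifs, and the sequences are from RefSeq, GRCm38.p6, 5′ to 3′ on the strand of the gene. Ltc4s (chr11:50238533-50238782, minus strand) holds none of the 6 motifs in this window. Cxcl2 (chr5:90903649-90903898, plus strand) holds kappaB with its first base 96 bases before the start site, and an Sp1 motif. Cxcl3 (chr5:90785851-90786100, plus strand), which stood at 38.4, 722 and 0.15 FPKM, holds kappaB at 72 bases before the start site. Tnfaip3 (chr10:19015411-19015660, minus strand) holds AP-1, Sp1 and kappaB motifs, the latter at 24 bases before this start site. Another start site of Tnfaip3, not shown, holds none of the 6 motifs in its window. Uqcr11 (chr10:80406822-80407071, minus strand), a complex III gene at 511, 30.4 and 110.5 FPKM, holds ETS. Atp5k (chr5:108434400-108434649, minus strand), an ATP synthase gene at 859, 22.6 and 193 FPKM, holds NRF1 on both strands at overlapping bases.
Ltc4s: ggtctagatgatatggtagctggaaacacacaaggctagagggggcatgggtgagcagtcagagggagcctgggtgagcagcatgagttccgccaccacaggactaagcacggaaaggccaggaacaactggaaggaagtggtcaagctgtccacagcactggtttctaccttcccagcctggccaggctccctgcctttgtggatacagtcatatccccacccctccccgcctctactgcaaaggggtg
Cxcl2: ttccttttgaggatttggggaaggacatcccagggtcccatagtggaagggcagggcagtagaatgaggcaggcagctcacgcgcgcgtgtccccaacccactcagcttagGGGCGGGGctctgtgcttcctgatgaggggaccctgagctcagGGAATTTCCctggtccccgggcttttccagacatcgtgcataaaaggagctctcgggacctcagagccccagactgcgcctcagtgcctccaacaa
Cxcl3: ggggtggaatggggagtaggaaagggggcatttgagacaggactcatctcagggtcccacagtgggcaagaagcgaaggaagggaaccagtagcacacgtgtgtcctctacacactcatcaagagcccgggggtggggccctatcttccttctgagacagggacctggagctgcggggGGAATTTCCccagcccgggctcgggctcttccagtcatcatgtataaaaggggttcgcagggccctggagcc
Tnfaip3: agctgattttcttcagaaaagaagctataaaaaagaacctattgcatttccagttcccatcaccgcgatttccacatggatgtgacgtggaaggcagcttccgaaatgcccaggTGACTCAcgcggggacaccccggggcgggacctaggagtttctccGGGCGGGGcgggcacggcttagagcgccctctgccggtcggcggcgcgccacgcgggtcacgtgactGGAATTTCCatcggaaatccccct
Uqcr11: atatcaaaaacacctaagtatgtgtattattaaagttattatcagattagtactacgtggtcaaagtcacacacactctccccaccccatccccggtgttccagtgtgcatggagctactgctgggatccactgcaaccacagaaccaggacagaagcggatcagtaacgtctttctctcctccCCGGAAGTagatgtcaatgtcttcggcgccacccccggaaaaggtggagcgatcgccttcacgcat
Atp5k: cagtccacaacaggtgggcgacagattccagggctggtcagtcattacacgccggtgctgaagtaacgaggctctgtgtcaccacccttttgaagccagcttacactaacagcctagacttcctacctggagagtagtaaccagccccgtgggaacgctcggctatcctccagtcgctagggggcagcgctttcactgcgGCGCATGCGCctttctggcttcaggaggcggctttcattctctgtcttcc

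The remaining extremes of the comparison were of several kinds. Among the 15 highest ratios, Copz2, a coatomer subunit gene, stood at 44.3, 1.37 and 0.047 FPKM and Gpc3, a glypican, at 34.4, 1.00 and 0.21 FPKM. Pcbd2, a cofactor-recycling enzyme gene, stood at 122, 5.38 and 6.42 FPKM. All 3 were low in nasal neutrophils. Among the 15 lowest, Lipg, an endothelial-type lipase gene, stood at 2.62, 78 and 0.91 FPKM and Crispld2, a secreted LPS-binding protein gene, at 0.84, 38.4 and 11 FPKM. Nasal neutrophils were highest for both.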

How the data were processed

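FPKM values per gene and library are those the authors deposited; the file headers name no unit, which was taken from Cufflinks and from the values. Reads were handled with TopHat2 2.0.8, Bowtie2 2.1.0 and Cufflinks 2.1.1 and build mm9, per the submitters' processing notes. Cells were sorted by flow cytometry and libraries made with a low-input cDNA kit, per the labels' protocols. Values below 1e-06 were set to 0. The ratio is the log2 of (FPKM + 1) in DP over nasal neutrophils, for genes at a mean of 1 FPKM or more, with calls at 4-fold, using Python 3.11.15, numpy 2.4.6 and pandas 2.3.3. This pseudocount understates differences of low genes. With 1 library a group no test was possible. The ratio and calls were tested on simulated data, made from the more abundant genes with large planted changes. That simulation held no difference in depth, no length effect and no general shift, so it does not cover these or low genes. Transcript lengths came from GENCODE M21 for 98.8% of tested genes, and length correction centred ratios within 20 length ranges. Fragment numbers were estimated from steps between low values of genes with 1 transcript, cover counting only, and are approximate.

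Members and the 61 gene lists were chosen with earlier results of these data known. Named genes are those of the sort, those that define a list, the 5 highest and 5 lowest of a list and the 15 highest and 15 lowest of genes above 0 in both nasal libraries, at a mean of 5 FPKM or more. Bcl2l1, C5ar1, Cd74, Cox5b, Gfi1b, Gngt2, Ifitm2, Il23a, Lcn11, Mmp25, Ndufb8, Rgs10, Siglece and Stoml3 fall outside that rule, having been picked once values were known. A few genes are not reported here. Alternatives were the pseudocount, the filter, the scaling, length, genes at 0, small RNA genes and a 2-fold threshold.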

Additional observations from a re-analysis of the deposited data

How the results depend on the processing

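The counts at 4-fold and the median log2 ratio of tested genes (903 higher, 388 lower, 0.57) moved with the settings as follows. With a pseudocount of 0.1 FPKM 1390 genes were higher and the median was 0.69, and with 5 FPKM 441 were higher, 203 lower and the median was 0.33. The median was 0.01575 with no filter and 0.73 with a mean of 5 FPKM or more. Centred on the median gene, 360 were higher and 773 lower. Upper-quartile scaling gave 347 higher, 728 lower and a median of 0.03574, and centring within length ranges 302, 726 and 0. At 2-fold the counts were 3600 and 1207. Rescaling to the same sum, leaving out genes at 0 and leaving out small RNA genes, the last chosen after seeing the data, kept both counts within 1.5 times. No paired analysis was possible because each group held 1 library, and no library could be left out. Depth limits nasal neutrophil values most, as 1 FPKM at 1 kb there rests on about 13 fragments.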
